A study of Mus musculus with 24 samples.

Results

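The T helper cytokines and lineage factors of the mouse are a small set of genes by which the classes of CD4+ T cells are told apart: Il4, Il5 and Il13 for Th2 cells, Il17a for Th17 cells, Ifng for Th1 cells, Il10 for regulation, and the transcription factor genes Gata3, Tbx21 and Foxp3 for Th2, Th1 and regulatory T (Treg) cells. The members were chosen by name, as 9 gene symbols, and 8 of the 9 were read from a table of 23891 genes measured by RNA-Seq in whole lung. Il4, which encodes the cytokine that starts Th2 commitment, was not analysed here. All values are counts per 1000000 reads (CPM).

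The samples were left lung lobes of C57BL/6 mice in 4 groups. Adult mice given saline were 20 wk old (n = 5), and the other 3 groups were 80 wk old: saline (n = 5), house dust mite extract (HDM, n = 7) and HDM with dexamethasone (HDM + Dex, n = 7). HDM is an aeroallergen, given at 50 μg per intranasal dose, and Dex is a synthetic glucocorticoid, dosed at 4 mg/kg at intervals of 72 h. Tissue was harvested 24 h past the final challenge. The study used mice of both sexes, and the labels tie no sample to an animal or a sex, so p-values measure the spread between these samples. No HDM-treated adult sample was analysed here, so HDM was compared with saline in aged lungs alone.

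Naïve CD4+ T cells take on a helper fate according to the cytokines present at activation. GATA3, the factor encoded by Gata3, opens the Th2 cytokine locus and is required for IL-4, IL-5 and IL-13, which drive IgE, eosinophils and mucus in the allergic airway. T-bet, encoded by Tbx21, directs Th1 cells and interferon gamma, and Foxp3 defines Treg cells. Th17 cells secrete IL-17A, which recruits neutrophils through the epithelium. Group 2 innate lymphoid cells (ILC2) also hold GATA3 and secrete IL-5 and IL-13, γδ T cells secrete IL-17A, and NK cells hold T-bet and secrete interferon gamma, so a transcript in whole lung does not name its cell.

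On the mouse genome GRCm38, Il13 lies on chr11:53631324-53634702 (minus strand) and Il5 on chr11:53720794-53725106 (plus strand), with 86.1 kb between them; Il17a lies on chr1:20730905-20734496 (plus strand). The 250 bases before the start of these 3 cytokine genes are shown because they are the members that were read mostly in HDM-treated lungs (Il13, Il17a) and the Th2 neighbour that was not (Il5). They were taken from RefSeq (GRCm38.p6), which gave a window for 8 of the 9 members. Capitals mark GATA in either orientation (GATA or TATC) in Il13 and Il5, and AGGTCA in either orientation (AGGTCA or TGACCT), a core shared by motifs of many nuclear receptors, in Il17a.
Il13, chr11:53634703-53634952, minus strand: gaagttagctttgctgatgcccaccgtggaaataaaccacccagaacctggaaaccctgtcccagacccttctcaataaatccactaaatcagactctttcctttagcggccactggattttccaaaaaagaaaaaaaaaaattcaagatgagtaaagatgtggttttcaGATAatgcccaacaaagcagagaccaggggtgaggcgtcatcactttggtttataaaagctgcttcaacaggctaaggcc
Il5, chr11:53720544-53720793, plus strand: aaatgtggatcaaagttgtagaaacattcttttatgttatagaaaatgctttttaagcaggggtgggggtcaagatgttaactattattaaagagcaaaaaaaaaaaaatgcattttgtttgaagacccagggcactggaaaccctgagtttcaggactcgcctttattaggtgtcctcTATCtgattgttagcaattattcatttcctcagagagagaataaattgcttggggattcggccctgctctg
Il17a, chr1:20730655-20730904, plus strand: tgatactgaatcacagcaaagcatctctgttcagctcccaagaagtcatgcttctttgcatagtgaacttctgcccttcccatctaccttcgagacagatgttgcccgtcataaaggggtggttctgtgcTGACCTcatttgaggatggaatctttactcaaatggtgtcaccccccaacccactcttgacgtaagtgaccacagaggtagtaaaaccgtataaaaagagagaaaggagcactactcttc
Il13 held 1 GATA, 80 to 77 bases before the start, and Il5 held 1 in the reverse orientation, 71 to 68 bases before it. Il17a held 1 AGGTCA in the reverse orientation, 120 to 115 bases before its start. The Il17a window also held 1 GATA, left in lower case, so GATA was not particular to the Th2 genes. The window of Ifng held 1 GATA, those of Foxp3 held 2 each and those of Gata3 and Tbx21 held 0. GATA in either orientation was present in 53.6% and AGGTCA in 14% of all 32851 windows of this length, and none of the capitalised stretches overlaps another motif searched. These matches describe the sequence only.

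Il13, Il17a and Ifng were near the limit of detection, with at least 3 estimated reads in 9, 8 and 14 of the 24 samples, while Il10 had as many in 17 and Il5 in all 24. The spacing of low values in each sample gave an estimated depth of 10.1 to 33.1 M reads per sample, so that 3 reads were worth 0.0906 to 0.298 CPM. A gene listed at the constant 0.0001 was taken as having no read. Over the 24 samples the estimated reads summed to 63 for Il13, 123 for Ifng, 128 for Il17a, 270 for Il5, 631 for Il10, 941 for Tbx21, 1249 for Foxp3 and 3858 for Gata3. Il5, Gata3, Tbx21 and Foxp3 had a read in all 24 samples, Il10 in 21, Ifng in 20, Il13 in 17 and Il17a in 12. Per kilobase of exon, the median over all samples was highest for Gata3 at 2.36 CPM per kb, followed by Tbx21 at 0.760, Foxp3 at 0.637, Il10 at 0.514, Il5 at 0.454, Ifng at 0.167, Il13 at 0.0571 and Il17a at 0.0280 CPM per kb. The Foxp3 values were whole multiples of 1 read in 4 of 24 samples, where those of all other members except Ifng were whole in all 24, so the Foxp3 read numbers are approximate.

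Samples differed in composition beyond their labels. The share of CPM taken by 7SL, the noncoding RNA of the signal recognition particle, ran from 9.92% to 42.0%. All 5 aged saline samples were under 20%, as were 4 of 5 adult saline, 2 of 7 HDM and 3 of 7 HDM + Dex samples. The 20% cut was chosen after seeing the data, so values and p-values on either side of it are a description. By Xist and Y-linked transcripts, 5 of 5 adult saline, 2 of 5 aged saline, 2 of 7 HDM and 4 of 7 HDM + Dex samples were female, so that age and sex, and 7SL share and HDM, cannot be fully told apart. HDM replicate 3 had the fewest reads and adult saline replicate 1 the highest 7SL share. In whole lung, fewer cells of a type and less RNA per cell cannot be told apart.

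**Figure D1:**
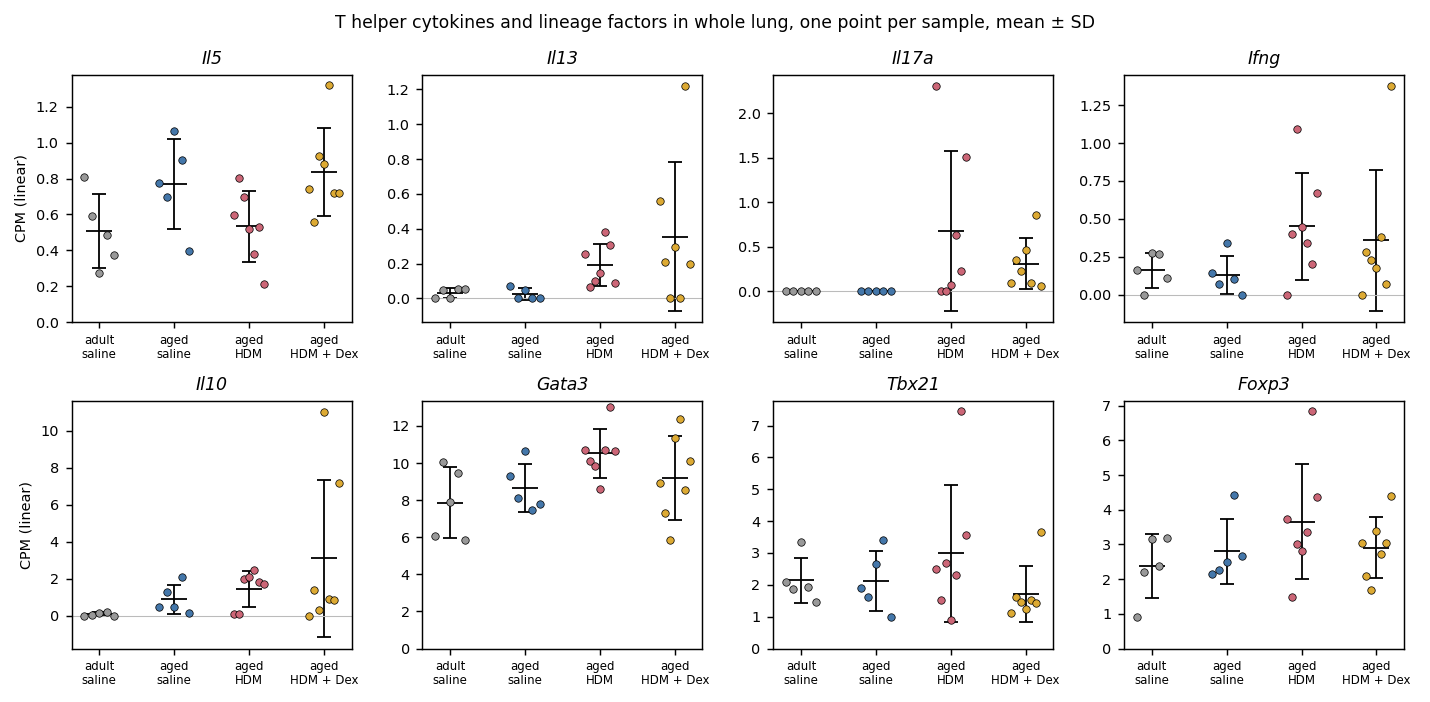
CPM (linear vertical axes, each from its own range) of the 8 members in 4 groups (horizontal axis), with 1 point per sample and the mean ± SD as bars. Il17a lies at 0 in all 10 saline samples and reaches 2.31 CPM in an HDM sample, and Gata3 lies between 5.86 and 13.0 CPM in all 24 samples.

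In aged lungs, HDM was compared with saline to ask which helper programs the allergen brought into the tissue. Il17a rose, from no read in any saline sample to a read in 5 of 7 HDM samples. Il13 was read in 7 of 7 HDM samples against 2 of 5 saline samples, at a level that did not pass the test over all genes, and Ifng, Il10, Gata3, Tbx21 and Foxp3 had higher means without passing it. Il5 alone had a lower mean in HDM than in saline lungs. Of the 8 members, 1 was called by limma on log2(CPM + 0.1) at an adjusted p under 0.05, where 19.2% of 23808 genes tested were called. An unadjusted p under 0.05 was seen for 2 of the 8 members and for 8067 of the 23808 genes.

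Il17a encodes the defining cytokine of Th17 cells. It was at 0 CPM in each of the 5 aged saline samples. In the 7 HDM samples the lowest value was 0, the median 0.228 and the highest 2.31 CPM. The highest HDM samples, replicates 1 and 7 with 27 and 50 estimated reads, stood well above the rest, and replicates 2 and 3 had no read, so the groups overlapped at 0. The HDM mean of 0.679 ± 0.899 CPM (SD, n = 7) was at least 23.4-fold higher than the floor of 3 reads over the saline group, 0.0290 CPM, and at least 14.05-fold without HDM replicate 1. The limma log2 fold change was 2.0 ± 0.68 (SE) with an adjusted p of 0.044, and the exact permutation test of the CPM means gave p = 0.107 (n = 7 and 5). The call was narrow: adjusted p was 0.054 after median-of-ratios rescaling and 0.079 with 1 CPM added in place of 0.1, and 9 of 19 samples, when left out singly, took it over 0.05. Those were all 5 aged saline samples, HDM replicates 1, 5 and 7 and HDM + Dex replicate 2, with adjusted p from 0.0501 to 0.0956.

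Il13 encodes the Th2 cytokine that acts on airway epithelium and smooth muscle. Its aged saline values were 0.0706, 0, 0.0483, 0 and 0 CPM. Its 7 HDM values ran from 0.0669 through a median of 0.148 to 0.380 CPM. HDM samples were higher in 34 of 35 pairs with saline samples, and the overlap came from saline replicate 1, with 2 reads, above HDM replicate 2, with 1 read. The means were 0.192 ± 0.121 CPM (SD, n = 7) and 0.0238 ± 0.0335 CPM (n = 5), with p = 0.014 in the exact permutation test, from 23 and 3 reads in all. By limma the log2 fold change was 1.17 ± 0.53 (SE), with an adjusted p of 0.122 and 0.082 to 0.314 over the alternatives.

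Il5 encodes the cytokine that matures and sustains eosinophils. Aged saline samples held 0.777, 0.700, 1.06, 0.905 and 0.396 CPM. HDM samples ran from 0.211 through 0.532 to 0.803 CPM, overlapping saline, and HDM was the higher in 7 of 35 pairs. The means were 0.534 ± 0.196 CPM in HDM and 0.768 ± 0.250 CPM in saline, with p = 0.102 in the exact permutation test (n = 7 and 5). The log2 fold change was -0.47 ± 0.33 (SE), with a limma adjusted p of 0.323, where the median over the genes tested was -0.28. After median-of-ratios rescaling the log2 fold change was -0.24, with a limma adjusted p of 0.668. The rescaled difference in means was -0.096 with an exact permutation p of 0.504.

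Gata3 had the highest median CPM per kb of the members in every group. Aged saline values were 9.29, 8.12, 10.6, 7.49 and 7.82 CPM. HDM values ran from 8.59 through 10.7 to 13.0 CPM, higher in 31 of 35 pairs but overlapping. The means of 10.5 ± 1.33 and 8.67 ± 1.29 CPM differed with p = 0.040 in the exact permutation test (n = 7 and 5), which went over 0.05 when any of 8 samples was left out (up to 0.088). The limma log2 fold change was 0.28 ± 0.18 (SE), with an adjusted p of 0.279. After median-of-ratios rescaling it was 0.53 with an adjusted p of 0.014, which is a call, where 4000 of 23808 genes tested were called. The rescaled groups no longer overlapped (35 of 35 pairs). Before rescaling 1719 of 23808 genes did not overlap in either direction, and that number was not computed after rescaling. Over the genes tested, the median was -0.28 on the log2 scale before rescaling and -0.04 after, and relative to that median Gata3 stood 0.56 higher on the log2 scale. Set against the mean log2 level of the T cell receptor genes Cd3d, Cd3e and Cd3g, the Gata3 difference was 0.09 with an exact permutation p of 0.819.

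Ifng, whose product activates macrophages, held 0.141, 0.0700, 0.338, 0.101 and 0 CPM in aged saline samples. In HDM it ran from 0 through 0.402 to 1.09 CPM, and the groups overlapped. The means were 0.450 ± 0.352 and 0.130 ± 0.127 CPM, with p = 0.074 in the exact permutation test (n = 7 and 5) and a limma adjusted p of 0.193. The highest value was in HDM replicate 3, the sample with the fewest reads, from 11 estimated reads.

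Tbx21, the Th1 factor, held 1.91, 1.61, 2.66, 3.42 and 0.989 CPM in aged saline and ran from 0.888 through 2.48 to 7.45 CPM in HDM. Foxp3, the Treg factor, held 2.15, 2.26, 2.51, 4.42 and 2.65 CPM in aged saline and ran from 1.49 through 3.35 to 6.85 CPM in HDM. Il10, the anti-inflammatory cytokine, held 0.459, 1.26, 0.483, 2.06 and 0.148 CPM in aged saline and ran from 0.0669 through 1.82 to 2.45 CPM in HDM. All 3 overlapped between groups, and HDM replicate 6 was the highest for Tbx21 and Foxp3. Their limma log2 fold changes were 0.34 ± 0.40, 0.30 ± 0.31 and 0.46 ± 0.95 (SE), with adjusted p of 0.582, 0.505 and 0.762. Within the samples with a 7SL share under 20% (2 HDM and 5 saline), HDM was higher by 0.869 CPM for Il17a and 0.173 CPM for Il13. It was higher by 3.16 CPM for Gata3 and 3.39 CPM for Tbx21 (5.51 ± 2.75 against 2.12 ± 0.944 CPM). Each of these differences had an exact permutation p of 0.0476, the smallest this design allows. With 2 HDM samples left by a cut chosen after seeing the data, these p-values are a description. Over all samples (n = 7 and 5) the exact permutation p for Tbx21 was 0.513. Ifng, Foxp3 and Il10 were higher with exact permutation p of 0.095, 0.095 and 0.286, and Il5 was lower with p of 0.143. HDM replicates 6 and 7, the pair with a 7SL share under 20%, were the only females of their group by Xist. They also held its highest Cd3 levels, at 4.13 and 3.79 on the log2 scale. The part of 7SL share, sex or Cd3 level in these values was not tested.

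**Figure D2:**
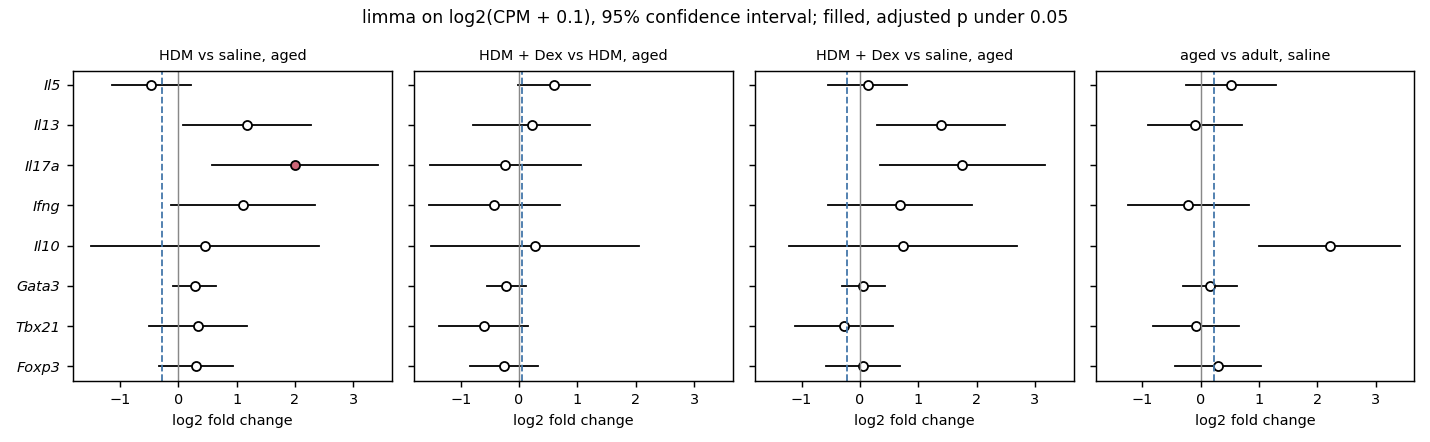
log2 fold changes of the members (rows) by limma in 4 comparisons (panels), with 95% confidence intervals as lines, filled points for an adjusted p under 0.05 and a dashed line at the median of all genes tested. Il17a in HDM vs saline, at 2.0, is the filled point, and the Il17a row is left out of the age panel because no saline sample had a read.

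Genes of the surrounding pathways were grouped by their known function. These lists were chosen with earlier results of these data known, so their counts are a description. Counts of list genes or cell markers at an unadjusted p under 0.05 stand beside the number over all genes given for each comparison. In HDM vs saline, 3.15% of all genes tested were called higher and 16% lower, and after rescaling the 750 higher and 3815 lower genes became 1883 and 2117. Of 16 genes known to be induced by IL-4 or IL-13, 14 rose and none fell, with a median log2 fold change of 3.68 where all genes had -0.28. The largest were Clca1, a secreted goblet cell protein, which went from 0.527 ± 0.409 to 176 ± 145 CPM (log2 fold change 7.62 ± 0.80, SE), Arg1, the arginase of alternatively activated macrophages, from 1.24 ± 0.307 to 204 ± 205 CPM, and Retnla, a resistin-like secreted protein, from 6.07 ± 2.75 to 490 ± 302 CPM, with adjusted p by limma of 1.26e-05, 0.000689 and 1.77e-05.

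For the receptors and inducers of type 2 cytokines there were fewer calls. Of 9 genes for receptors and signal transducers of IL-4, IL-5 and IL-13, 3 rose and none fell, with a median of 0.44. Il13ra2, the decoy receptor of IL-13, rose from 0.0101 ± 0.0225 to 1.29 ± 1.11 CPM, and Csf2rb, the shared chain of the IL-5 receptor, and the kinase gene Jak3 rose by log2 fold changes of 0.79 and 0.64. Il4ra at 172 ± 27.3 against 152 ± 39.3 CPM, Il13ra1 at 21.4 ± 6.64 against 27.4 ± 4.13 CPM and Il5ra at 3.12 ± 1.30 against 1.13 ± 0.483 CPM did not pass the test, with adjusted p of 0.348, 0.160 and 0.106. Of 5 tested genes for epithelial inducers and their receptors, Il1rl1 (the IL-33 receptor) and Crlf2 (the TSLP receptor) rose, by 1.55 ± 0.32 and 1.30 ± 0.21 on the log2 scale (SE, adjusted p 0.00247 and 0.000636 by limma).

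The genes around IL-17A were its known targets and those of the Th17 lineage. Of 8 tested genes known to be induced by IL-17, 4 rose and none fell, with a median log2 fold change of 1.69: Saa3, an acute phase protein, from 0.523 ± 0.273 to 36.6 ± 35.6 CPM, Lcn2, a siderophore-binding protein, from 74.2 ± 54.8 to 401 ± 182 CPM, and the neutrophil chemokine genes Cxcl5 and Cxcl1. Of 15 tested Th17 receptor, lineage and inducing genes, Tgfb1 rose (0.67 ± 0.17) and Rora, a Th17 lineage factor that many lung cells also express, fell (-0.75 ± 0.16), with limma adjusted p of 0.0103 and 0.00277. Il23r, the IL-23 receptor, was at 0.552 ± 0.323 CPM in HDM and 1.14 ± 0.325 CPM in saline (adjusted p 0.128 by limma). The receptor gene Il17ra was at 61.7 ± 17.6 and 52.2 ± 11.5 CPM (adjusted p 0.400).

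For the Th1 side, none of 12 genes known to be induced by interferon gamma was called by limma, 2 had an unadjusted p under 0.05, and 2 were called after rescaling; their median was 0.57. Of 12 Th1 receptor, lineage and inducing genes, Ifngr2 rose (0.72 ± 0.14, adjusted p 0.00155) and Il18r1 fell (-0.51 ± 0.17, adjusted p 0.0429, and 0.161 after rescaling), with a median of -0.30. Of 15 Treg and IL-10 pathway genes, 3 rose and 1 fell, with a median of 0.53 on the log2 scale, and after rescaling 6 were called higher and none lower. Those that rose were Tnfrsf9, a costimulatory receptor of activated T cells, from 1.27 ± 0.53 to 11.2 ± 4.80 CPM, Ccr8, a chemokine receptor of Th2 and Treg cells, from 0.318 ± 0.411 to 1.57 ± 0.878 CPM, and Il10ra, the IL-10 receptor. Lrrc32, which Treg cells and endothelium express, fell by 0.45 on the log2 scale (adjusted p 0.046, and 0.409 after rescaling).

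Markers of the cells that could carry these transcripts were read beside them. None of 12 T cell markers was called by limma in HDM vs saline and none had an unadjusted p under 0.05, with 1 called after rescaling; all 12 were read in every sample, and their summed level ran from 45.8 to 145 CPM in aged saline and from 67.2 to 184 CPM in HDM. For γδ T cells, 3 of 6 markers were analysed, summing to 52.0 to 78.8 CPM in saline and 29.98 to 69.5 CPM in HDM. Most of this sum was Sox13, at means of 58.4 and 45.0 CPM, against 1.04 and 0.449 CPM for Trdc. Cd163l1, a scavenger receptor of IL-17-producing γδ T cells, fell from 1.95 ± 0.628 to 0.594 ± 0.407 CPM (adjusted p 0.047 by limma, and 0.094 after rescaling). ILC2 markers, 6 of 6, summed to 207 to 243 and 192 to 238 CPM, with Il1rl1 higher and Rora lower. Most of that sum was Kit, at means of 105 and 103 CPM, and Rora, at 92.7 and 55.8 CPM. Neither sum is therefore a level of the named cells. NK cell markers, 8 of 8, summed to 9.75 to 39.2 and 11.7 to 39.6 CPM with none called by limma, none at an unadjusted p under 0.05 and none after rescaling. Of 4 eosinophil markers, summing to 7.02 to 11.3 and 7.43 to 35 CPM, Ccr3 rose, and of 6 mast cell and basophil markers, summing to 1.33 to 4.06 and 0.736 to 2.08 CPM, none was called by limma, with 1 at an unadjusted p under 0.05 and none called after rescaling. Of 7 lung tissue markers, which check the labelled tissue and were read in every sample, 4 fell: the club cell gene Scgb1a1, the ciliated cell gene Foxj1 and the endothelial genes Cdh5 and Pecam1, and of these Pecam1 and Foxj1 were not called after rescaling (adjusted p 0.198 and 0.103). The part of any of these markers in the members' values was not tested.

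**Figure D3:**
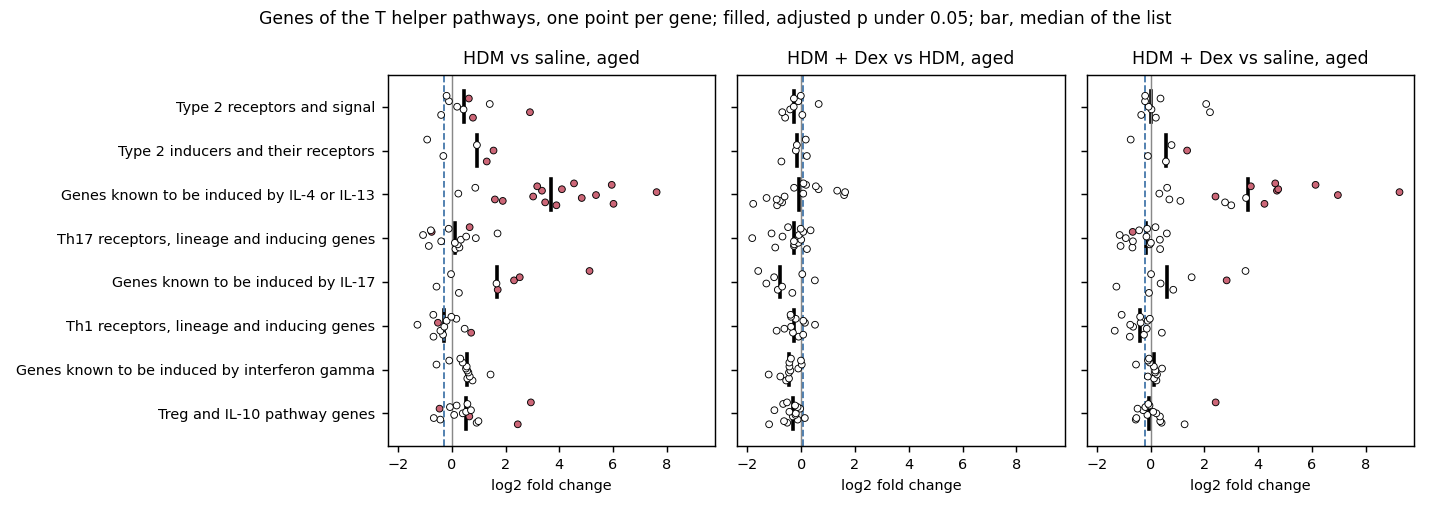
log2 fold changes by limma (horizontal axis) of the genes in 8 pathway lists (rows) in 3 comparisons of aged lungs (panels), with 1 point per gene, filled for an adjusted p under 0.05, a black bar at each list's median and a dashed line at the median of all genes. The IL-4 or IL-13 list has its median at 3.68 in HDM vs saline, at -0.10 in HDM + Dex vs HDM and at 3.64 in HDM + Dex vs saline.

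HDM + Dex was compared with HDM to ask what the glucocorticoid changed in the challenged aged lung. No member was called, where 0.622% of 23808 genes were called by limma, and none of the 8 had an unadjusted p under 0.05 or was called after rescaling. Over all 23808 genes, 3116 had an unadjusted p under 0.05 and 428 were called after rescaling. Il5 had the higher mean with Dex, Tbx21, Gata3 and Foxp3 the lower, and Il17a and Il13 spread so widely that neither direction held when single samples were left out. The median over genes tested was 0.05 on the log2 scale. This contrast shares its HDM samples with the HDM vs saline contrast.

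Il5 in HDM + Dex samples ran from 0.558 through a median of 0.742 to 1.32 CPM. It was higher than in HDM samples in 43 of 49 pairs, and the groups overlapped. The means were 0.839 ± 0.245 and 0.534 ± 0.196 CPM, a difference of 0.305 CPM with p = 0.019 in the exact permutation test (n = 7 and 7). This was 1 of 31 raw p-values for differences in mean CPM over the members and the 4 comparisons, of which 5 were under 0.05. Tests on other scales and within 7SL ranges come on top of these 31. The Il5 p-value remained under 0.05 when each sample was left out (up to 0.042), was 0.058 after rescaling, and was 0.062 relative to the Cd3 genes. By limma the difference was 0.60 ± 0.30 (SE) on the log2 scale, with an adjusted p of 0.403. Within samples with a 7SL share of 20% or more the means were 0.736 ± 0.151 (n = 4) and 0.599 ± 0.163 CPM (n = 5), and the exact permutation p was 0.238. Under 20% they were 0.976 ± 0.312 (n = 3) and 0.372 ± 0.227 CPM (n = 2), with an exact permutation p of 0.2, where 0.1 is the smallest possible.

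Il17a in HDM + Dex ran from 0.0656 through 0.231 to 0.862 CPM, inside the HDM range of 0 to 2.31 CPM. It was read in 7 of 7 samples, although the mean of 0.309 ± 0.286 CPM was under the HDM mean (exact permutation p = 0.364, n = 7 and 7). Il13 ran from 0 through 0.209 to 1.22 CPM and was read in 5 of 7 samples, with a mean of 0.354 ± 0.427 CPM (exact permutation p = 0.426, n = 7 and 7). The highest Il13 and the highest Il17a of the HDM + Dex group were in the same sample, replicate 6, with 17 and 12 reads. The limma log2 fold changes, with 95% confidence intervals, were -0.24 (-1.53 to 1.05) for Il17a and 0.22 (-0.78 to 1.22) for Il13.

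Tbx21 ran from 1.11 through 1.47 to 3.67 CPM with Dex, and 6 of 7 samples were at or under 1.61 CPM. Its mean was 1.72 ± 0.877 against 2.99 ± 2.14 CPM in HDM, with p = 0.159 in the exact permutation test (n = 7 and 7) and a log2 fold change of -0.61 (95% confidence interval -1.37 to 0.15). Gata3 ran from 5.86 through 8.91 to 12.4 CPM, with a mean of 9.21 ± 2.26 against 10.5 ± 1.33 CPM (exact permutation p = 0.214, and 0.049 after rescaling, n = 7 and 7). Within samples with a 7SL share of 20% or more, Gata3 was at 7.66 ± 1.38 CPM with Dex (n = 4) and 9.99 ± 0.873 CPM in HDM (n = 5), with an exact permutation p of 0.0238, and under 20% at 11.3 ± 1.15 (n = 3) and 11.8 ± 1.65 CPM (n = 2), with an exact permutation p of 0.7. Foxp3 ran from 1.70 through 3.03 to 4.38 CPM, and its mean of 2.91 ± 0.876 CPM was under the HDM mean of 3.66 ± 1.66 CPM (exact permutation p = 0.331, n = 7 and 7). Relative to the Cd3 genes, Gata3 and Foxp3 turned to 0.20 and 0.17 higher with Dex on the log2 scale. The 12 T cell markers summed to 35.8 to 164 CPM with Dex, with none called by limma or after rescaling and 2 at an unadjusted p under 0.05.

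Il10 and Ifng were set by few samples. Il10 ran from 0 through 0.898 to 11.0 CPM with Dex, and replicates 4 and 7 held 11.0 and 7.15 CPM where the other 5 held 1.40 or less. Both had a 7SL share under 20% and were female by Xist. Within samples under 20% the Il10 mean was 6.35 ± 5.10 CPM with Dex (n = 3) and 1.76 ± 0.0936 CPM in HDM (n = 2), and at 20% or more it was 0.642 ± 0.616 (n = 4) and 1.33 ± 1.16 CPM (n = 5), the opposite order. The exact permutation p was 0.400 and 0.317, where the smaller design could not go under 0.1. Ifng ran from 0 through 0.231 to 1.38 CPM, with replicate 7 alone above 0.378 CPM, and its mean of 0.359 ± 0.47 CPM lay within the spread of HDM (exact permutation p = 0.673, n = 7 and 7).

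**Figure D4:**
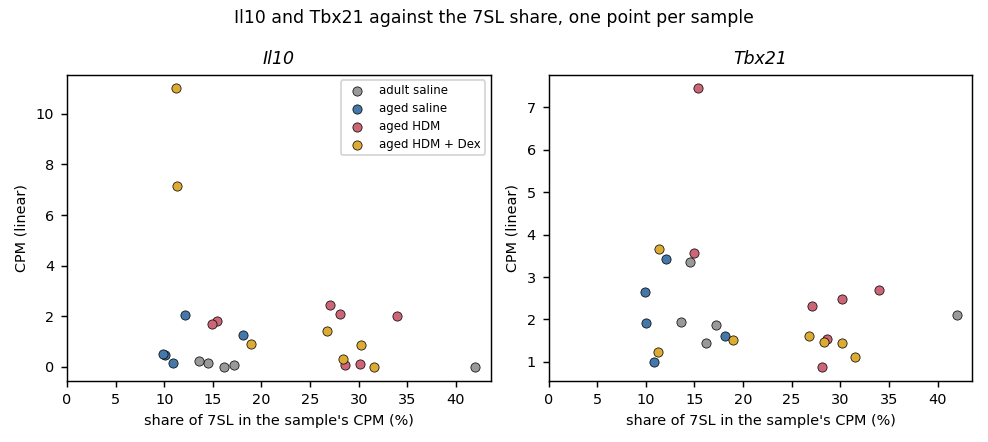
CPM (vertical, linear) of Il10 and Tbx21 against the share of 7SL in each sample (horizontal, %), with 1 point per sample coloured by group. The HDM + Dex samples with Il10 at 11.0 and 7.15 CPM and the HDM sample with Tbx21 at 7.45 CPM all lie under 20%.

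HDM + Dex was also compared with saline, to see what of the HDM response was present under Dex. None of the 8 members was called by limma, where 0.89% of genes tested were called, and none was called after rescaling. An unadjusted p under 0.05 was seen for 2 members and for 4112 of 23808 genes tested. Il17a was the exception in another sense: every HDM + Dex sample was above every aged saline sample. Such a separation with the first group higher was seen for 0.47% of genes tested. After rescaling the 79 genes called higher and 133 lower became 102 and 68. These samples share their saline group with the HDM vs saline contrast.

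Il17a, at 0 in all 5 aged saline samples, had 1, 5, 3, 8, 2, 12 and 1 estimated reads in HDM + Dex replicates 1 to 7. The mean was at least 10.7-fold above the saline floor of 0.0290 CPM, and the exact permutation test gave p = 0.015 (n = 7 and 5), 0.036 at most with any sample left out. The limma log2 fold change was 1.76 ± 0.68 (SE), with an adjusted p of 0.201. Within the samples with a 7SL share under 20%, the mean was 0.210 ± 0.226 CPM with Dex (n = 3) and 0 in saline (n = 5), with an exact permutation p of 0.018, the smallest the design allows. For Il13 the log2 fold change was 1.39 ± 0.53 (SE), with an adjusted p of 0.194 by limma and an exact permutation p of 0.090 (n = 7 and 5). The other 6 members had log2 fold changes of -0.27 (Tbx21) to 0.73 (Il10), with adjusted p of 0.548 to 0.947.

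Of the genes known to be induced by IL-4 or IL-13, 9 of 16 rose and none fell in HDM + Dex vs saline, where 0.332% of all genes were called higher and 0.559% lower, and the list median was 3.64 on the log2 scale. After rescaling 8 of the 16 were called higher, without Arg1 (limma adjusted p 0.0599). Clca1 reached 456 ± 274 CPM, Chil4, a chitinase-like protein gene, 59.5 ± 35.2 CPM and Retnla 564 ± 432 CPM. Against HDM alone, none of the 16 was called by limma or after rescaling, 3 had an unadjusted p under 0.05, and the list median was -0.10. Of the 8 IL-17-induced genes, Cxcl5 rose in HDM + Dex vs saline, from 1.97 ± 1.82 to 9.45 ± 3.96 CPM (adjusted p 0.032). After rescaling Cxcl5 and Lcn2 were called higher, with limma adjusted p of 0.0348 and 0.0356. Against HDM alone none of these 8 was called by limma or after rescaling and 2 had an unadjusted p under 0.05, with Lcn2 at 206 ± 105 and Saa3 at 10.2 ± 9.52 CPM with Dex.

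Adult and aged saline lungs were compared for the effect of age before any allergen. None of the 8 members was called by limma, where 0.554% of genes tested were called, and none after rescaling. An unadjusted p under 0.05 was seen for 2540 of 23808 genes tested and for 1 member. That member was Il10, which was higher in aged lungs in 24 of 25 pairs. Over all genes, 121 were called higher and 11 lower in aged lungs, and 122 and 74 after rescaling, with the median log2 fold change at 0.22 before and 0.02 after. Il17a had no read in any of the 10 samples, so no fold is given.

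Il10 held 0, 0.0494, 0.137, 0.216 and 0 CPM in adult saline samples, 7 estimated reads in all, against 0.459, 1.26, 0.483, 2.06 and 0.148 CPM in aged saline. The overlap came from adult replicate 4, with 4 reads, above aged replicate 5, with 3. The means were 0.0804 ± 0.0942 and 0.882 ± 0.776 CPM, with p = 0.016 in the exact permutation test (n = 5 and 5), which went over 0.05 when adult replicate 1, 2, 3 or 5 was left out (up to 0.071). In the limma fit the log2 fold change was 2.21 ± 0.56 (SE), with an adjusted p of 0.118. Over the alternatives the limma adjusted p ran from 0.046, without aged replicate 5, to 0.405. It was 0.175 with sex as a covariate and 0.204 with 1 CPM added. The same means after rescaling were 0.0713 and 0.791 CPM, also with an exact permutation p of 0.016.

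None of the other members passed 0.05 in CPM between ages. Il5 held 0.807, 0.593, 0.273, 0.487 and 0.376 CPM in adult saline, a mean of 0.507 ± 0.206 against 0.768 ± 0.250 CPM in aged saline (exact permutation p = 0.111, n = 5 and 5). Gata3 held 6.05, 10.03, 7.92, 9.46 and 5.86 CPM, and its mean of 7.87 ± 1.91 against 8.67 ± 1.29 CPM changed order after rescaling (8.01 in adult and 7.64 in aged). Tbx21 at 2.14 ± 0.713 and 2.12 ± 0.944 CPM, Foxp3 at 2.37 ± 0.923 and 2.80 ± 0.929 CPM, Ifng at 0.162 ± 0.115 and 0.130 ± 0.127 CPM, and Il13 at 0.0315 ± 0.0288 and 0.0238 ± 0.0335 CPM overlapped in adult and aged saline. Relative to the Cd3 genes, Tbx21 was 0.79 lower in aged lungs on the log2 scale, with a raw exact permutation p of 0.048 (n = 5 and 5).

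By list, the genes higher in aged saline lungs were 2 of 15 Th17, 1 of 8 IL-17-induced, 1 of 12 Th1 and 2 of 12 interferon gamma-induced genes, the last 1 after rescaling. None of 9 type 2 receptor genes, 5 inducers, 15 Treg and IL-10 genes or 16 genes induced by IL-4 or IL-13 was called higher by limma or after rescaling, with 3, 1, 5 and 3 at an unadjusted p under 0.05 in either direction, and 1 gene of the last list fell. Il21, a cytokine of follicular helper and Th17 cells, was at 0 in all 5 adult samples and 0.942 ± 0.680 CPM in aged samples. Ccr6, a chemokine receptor of Th17 and B cells, went from 0.923 ± 0.529 to 5.34 ± 2.08 CPM, and its ligand gene Ccl20 from 0.0323 ± 0.0481 to 1.98 ± 0.895 CPM. Cxcl9 and Cxcl10, chemokines induced by interferon gamma, rose by 3.46 ± 0.63 and 1.91 ± 0.38 on the log2 scale (SE, limma adjusted p 0.021 and 0.036, the second 0.063 after rescaling), and Il12rb1, an IL-12 and IL-23 receptor chain, by 1.79 ± 0.38 (adjusted p 0.049). Clca1 fell, from 5.46 ± 3.15 to 0.527 ± 0.409 CPM.

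The balance of the Th2 and Th1 factors was taken as the log2 ratio of Gata3 to Tbx21 within each sample, with 0.1 CPM added to each gene. It was 1.85 ± 0.48 in adult saline, 2.08 ± 0.64 in aged saline, 2.03 ± 0.75 in HDM and 2.42 ± 0.62 in HDM + Dex (mean ± SD). Gata3 was above Tbx21 in all 24 samples, and the ratio was lowest in HDM replicate 6 at 0.79 and highest in HDM replicate 4 at 3.14. No difference in the ratio passed 0.05: the exact permutation p was 0.888 for HDM vs saline, 0.307 for HDM + Dex vs HDM, 0.379 for HDM + Dex vs saline and 0.548 for aged vs adult (n = 5 to 7).

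**Figure D5:**
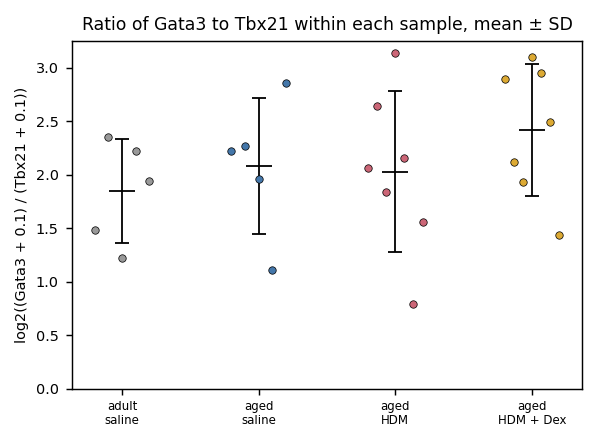
log2 ratio of Gata3 to Tbx21 (vertical axis, with 0.1 CPM added to each) in 4 groups (horizontal axis), with 1 point per sample and the mean ± SD as bars. The means lie between 1.85 and 2.42, and the HDM samples alone span 0.79 to 3.14.

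Across the 24 samples, which share groups and 7SL shares, members were also set beside other genes by Pearson correlation of log2(CPM + 0.1), as a description, over genes that averaged 1 CPM or more. Those most like Il13 were Muc5ac, the secreted mucin of goblet cells (r = 0.76), Chil3 (0.75) and Rnase2a (0.75). Those most like Il17a were Fuom (0.795), again Muc5ac (0.76) and Cd177 (0.76), a neutrophil surface protein. Gata3 was nearest to Tstd3 (0.78), Entpd7 (0.77) and Zap70 (0.76), a T cell receptor kinase, and Tbx21 to Tmem229b (0.74), Gm19412 (0.73) and Cd3d (0.72). Il10 was nearest to Clec10a (0.87), a lectin of macrophages and dendritic cells, and Foxp3 to Slbp, Ran and Vac14 (0.90, 0.86 and 0.86). For Il5 and Ifng the highest were Ccdc159 (0.66) and Cercam (0.67). Among the members themselves, Il13 and Il17a had the highest correlation (0.61), while both were at or near 0 in every saline sample.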

How the data were processed

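RNA of 24 left lung lobes was sequenced by the authors as stranded mRNA libraries (TruSeq Stranded mRNA, paired ends, NovaSeq). The submitters' processing notes name FastQC, STAR, DESeq2 and mm9, while the coordinates in the table match GRCm38. The deposited values are CPM, to each of which the authors had added 0.0001. Values at the constant were read as 0. The spacing of low values gave the depth of each sample. Between 80.8% and 85.5% of low values were whole multiples of 1 read (tolerance 0.05), too few for a count test, so no test on reads was run.

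The main test was limma 3.58.1 in R 4.3.3 on log2(CPM + 0.1), with the prior variance trended on mean level and p adjusted by Benjamini-Hochberg over 23808 genes above the constant in at least 5 samples. The 19 aged samples shared one fit and the 10 saline samples another. Fold changes on this scale understate changes of low genes. Differences in mean CPM were tested by two-sided exact permutation in Python 3.11.15 with NumPy 2.4.6, pandas 2.3.3 and SciPy 1.17.1, and figures were drawn with matplotlib 3.10.9; these raw p-values were not adjusted over the members. Groups came from the labels, which give no link from sample to animal. Sex was read from Xist and Ddx3y. The limma fit was tested on simulated data with changes set only in genes averaging 1 CPM or more. Il5, Il13, Il17a and Ifng averaged less than that, so the simulation does not cover changes in them.

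Alternatives were 1 CPM added, a filter at a mean of 1 CPM, no filter, median-of-ratios rescaling, all samples in one fit, a replicate block, sex as a covariate, only the 2 groups compared, and each sample left out. The named genes were the 8 members, receptor genes by value, up to 3 called genes of each list and direction with the largest change, and the 3 genes most like each member; others named to describe a count of calls were chosen after their values were seen. The members and lists were chosen with earlier results of these data known. Il4 and the listed genes Il25, Il17f, Il22, Csf3, Epx, Mcpt4, Tpsab1 and 3 γδ T cell receptor constant genes were not analysed here. The value of 1 listed gene is not reported here.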

Additional observations from a re-analysis of the deposited data

Results flagged for a closer look

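In 4 of 34 groups of values examined over the members, the highest sample stood far from the others by Dixon's criterion at 95%. For independent, normally spread values about 1 in 20 groups would be flagged, or 1.7. Values here are often low or 0 and members share samples, so 1.7 is a rough guide and no excess is claimed. Tbx21 was 7.45 CPM in HDM replicate 6, where the next sample of the group held 3.56 CPM, and 3.67 CPM in HDM + Dex replicate 7, where the next held 1.61 CPM. Ifng was 1.38 CPM in that same HDM + Dex sample, where the next held 0.378 CPM. Foxp3 was 4.42 CPM in aged saline replicate 4, where the next held 2.65 CPM. These 3 samples had the highest Cd3 level of their groups, at 4.13, 3.93 and 3.93 on the log2 scale, and the part of this in their values was not tested.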

How the results depend on the processing

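Of 736 log2 fold changes of members under alternatives, 701 kept the direction and the side of the threshold. Of 185 differences in mean CPM, 147 kept both. The 12 fold changes that lost a call were all of Il17a in HDM vs saline, the 1 member called in the main fit. The others began uncalled, so for them keeping the side of the threshold says little. The cause of the exceptions was not tested. Genes called in HDM + Dex vs HDM (148) numbered 43 with no filter, 428 rescaled, 309 with all samples in one fit, 258 with sex as a covariate and 6 with only the 2 groups compared. In HDM + Dex vs saline (212) they numbered 105 with all samples in one fit and 1382 with sex as a covariate. Replicate numbers did not pair the samples, since 1 of 5, 2 of 7, 0 of 5 and 0 of 5 pairs had correlated deviations over 0.1, and 1, 1, 0 and 0 samples correlated best with their own number. With the replicate block, 21 genes were called in HDM + Dex vs HDM, 587 in HDM + Dex vs saline, 5653 in HDM vs saline and 132 in aged vs adult, Il17a in HDM vs saline had an adjusted p of 0.0942 by limma, and Foxp3 in HDM + Dex vs saline was -0.16. With each sample left out, genes called ranged from 2723 to 5508 in HDM vs saline, 4 to 483 in HDM + Dex vs HDM, 55 to 526 in HDM + Dex vs saline and 64 to 172 in aged vs adult, and the Gata3 to Tbx21 log2 ratio in HDM vs saline from -0.30 to 0.15. Left out singly, samples also turned log2 fold changes in HDM + Dex vs HDM for Il13 (-0.13 to 0.49), Il17a (-0.57 to 0.19) and Il10 (-0.25 to 0.88), in HDM + Dex vs saline for Il5 (-0.057 to 0.25), Gata3 (-0.017 to 0.16) and Foxp3 (-0.056 to 0.22), and in aged vs adult for Ifng (-0.52 to 0.047) and Tbx21 (-0.27 to 0.15). With sex as a covariate, the log2 fold change was -0.24 for Il10 in HDM + Dex vs HDM, -0.067 for Foxp3 in HDM + Dex vs saline, and 0.32 for Ifng and 0.53 for Tbx21 in aged vs adult. Rescaled, Gata3 in aged vs adult was -0.051 on the log2 scale and -0.375 in CPM. Relative to the Cd3 genes, log2 differences in HDM + Dex vs HDM were 0.18 for Il17a, 0.20 for Gata3 and 0.17 for Foxp3, and in aged vs adult -0.19 for Il5, -0.55 for Gata3 and -0.42 for Foxp3. A split at a 7SL share of 20%, chosen after seeing the data, turned the CPM difference for Il13 (-0.0336) and Ifng (0.207) in HDM + Dex vs HDM and Tbx21 (0.0237) in HDM + Dex vs saline under 20%, and for Il10 (-0.691) in HDM + Dex vs HDM at 20% or more. Depth limits Il13, Il17a and Ifng most, since 3 reads were worth up to 0.298 CPM. Leaving out samples for the CPM differences and for the Il17a fold over the floor was also chosen after seeing the data.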
